A study of Mus musculus with 28 samples.

Results

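The genes of the urea cycle and of periportal nitrogen handling were described in 28 mouse livers. The list held 10 genes of these functions: Cps1, Otc, Ass1, Asl, Arg1, Nags, Slc25a15, Gls2, Hal and Sdsl. They were chosen with earlier results of these data known. A gene was measured by the brightest probe set that the probe-to-gene table ties to its symbol alone. By that rule 7 of the 10 genes were measured, each by 1 probe set, out of 18820 genes measured in this way on the arrays. Both probe sets for Ass1 also list Gm5424, so Ass1 was not analysed here, and neither were Gls2 and Sdsl. All livers came from male C57BL/6J mice, an inbred strain, that ate an intermittent diet. On that diet the mice took turns, week by week, between moderate-fat food (25% of energy as fat) eaten freely and a ration that gave 60% of what control mice took in. Mice on the diet from 9 weeks of age on, called lifelong here, gave 6 livers at the age of 6 months and 7 at 12 months. Switched mice ate the moderate-fat food freely until 12 months and the intermittent diet after that, and gave 8 livers at 24 months, an age at which lifelong mice gave 7. Every mouse was fasted for 4 hours, gavaged with carboxymethyl cellulose and fasted for another 6 hours before the liver was taken. In which week of the cycle a mouse was sampled is not stated in the labels, and livers from the study's other diets were not analysed here. Each liver was hybridised to its own single-colour whole-transcript array, and the values are log2 expression values.

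Array medians lay between 5.23 and 5.305 on the log2 scale, and the correlation between any pair of arrays was between 0.978 and 0.992. The array names carry the prefixes G150 (18 arrays), G151 (5 arrays) and G152 (5 arrays), each of which holds arrays of all 4 groups, and the prefix was a term in every fit. The 8 measured hepatocyte markers were bright on these arrays, from Hnf4a (98.5% of probe sets dimmer) to Alb (100% of probe sets dimmer, as rounded). The number of arrays in a group limits the precision of every value.

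The urea cycle turns ammonia, which is toxic to the brain, into urea that the kidney can excrete. It runs in periportal hepatocytes, the liver cells nearest to the incoming portal blood, partly in mitochondria and partly in the cytosol. Pericentral hepatocytes at the other end of the liver lobule take up what ammonia escapes and fix it as glutamine. Glucagon, glucocorticoids and a high intake of protein are known to raise the transcripts of the cycle's enzymes, as fasting does in rodents. Nags makes N-acetylglutamate, the activator that Cps1 needs, and Cps1 makes carbamoyl phosphate from ammonia and bicarbonate. Otc joins carbamoyl phosphate to ornithine, and Slc25a15 exchanges the product citrulline for ornithine across the inner mitochondrial membrane. Ass1 and Asl carry citrulline on to arginine, and Arg1 splits arginine into urea and ornithine. Hal releases ammonia from histidine, Sdsl acts on serine, and Gls2 is the liver glutaminase.

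Promoter sequences are shown for Otc, Hal and Slc25a15, members whose levels varied together from liver to liver as described with the gene pairs. No promoter sequence was available for Cps1, Asl and Arg1, so Cps1 and Asl, the pair with the highest correlation, are not shown. Each is the 250 bases before a transcript start, from RefSeq on the build GRCm38.p6, printed 5′ to 3′ along the gene's strand, and Slc25a15 has 2 listed starts. Capitals mark matches to the motifs searched.
Otc, chrX:10252055-10252304, plus strand: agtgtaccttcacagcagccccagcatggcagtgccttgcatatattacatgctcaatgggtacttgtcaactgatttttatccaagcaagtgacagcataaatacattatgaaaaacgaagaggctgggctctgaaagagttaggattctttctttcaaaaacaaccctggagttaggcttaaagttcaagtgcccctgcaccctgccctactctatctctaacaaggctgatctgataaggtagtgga
Hal, chr10:93488518-93488767, plus strand: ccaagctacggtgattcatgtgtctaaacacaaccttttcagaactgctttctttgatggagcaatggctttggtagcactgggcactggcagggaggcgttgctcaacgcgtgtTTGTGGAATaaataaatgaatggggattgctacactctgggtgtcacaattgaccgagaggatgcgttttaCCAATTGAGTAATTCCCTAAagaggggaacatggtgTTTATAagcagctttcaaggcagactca
Slc25a15, chr8:22398622-22398871, minus strand: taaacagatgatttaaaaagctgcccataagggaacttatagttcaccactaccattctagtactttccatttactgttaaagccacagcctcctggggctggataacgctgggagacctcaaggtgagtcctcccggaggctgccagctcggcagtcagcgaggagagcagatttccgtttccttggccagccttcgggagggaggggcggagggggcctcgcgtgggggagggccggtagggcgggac
Slc25a15, chr8:22398278-22398527, minus strand: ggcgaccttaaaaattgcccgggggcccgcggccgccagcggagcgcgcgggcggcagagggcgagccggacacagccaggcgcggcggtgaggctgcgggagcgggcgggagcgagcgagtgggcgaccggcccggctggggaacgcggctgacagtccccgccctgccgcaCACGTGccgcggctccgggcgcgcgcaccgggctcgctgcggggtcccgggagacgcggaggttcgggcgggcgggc
The motifs were the TATA box TATAAA, the CCAAT box CCAAT, the cyclic AMP element TGACGTCA and its shorter form TGACG, the C/EBP-type motif TTNNGNAAT, the glucocorticoid element part TGTTCT and the E box CACGTG, each on both strands. The Hal window holds 3 matches to the C/EBP-type motif, the first of which begins 135 bases before the start and the others at 60 and 53 bases. The last pair overlap each other, and the match at 60 bases also overlaps a CCAAT box that begins 64 bases before the start. The Hal window also holds a TATA box on the minus strand, 28 bases before the start. Of 32851 promoter windows of this length, 10.2% hold the C/EBP-type motif, 33.8% the CCAAT box and 12.4% the TATA box. The second Slc25a15 window holds an E box 77 bases before the start, a match that reads the same on both strands and occurs in 6% of windows. The windows of Otc and of the first Slc25a15 start hold none of these letters, nor does that of Nags. A match is a run of letters and was not tested as a binding site.

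Across the 4 groups, Arg1 was the member whose level differed, and it was lowest in the youngest livers. In limma's moderated F-test over the 4 groups the adjusted p of Arg1 was 0.0313, and the other 6 measured members had adjusted p-values between 0.131 (Slc25a15) and 0.314 (Hal). Of all 35556 probe sets, 8.07% passed that test. The call of Arg1 was lost in each fit without 6-month replicate 1, 2, 3, 4 or 6. Adjusted p-values are by Benjamini-Hochberg over all probe sets, with a threshold of 0.05. The groups of every member overlapped in each of the 4 fitted comparisons. Replicates are separate mice, as their mouse numbers in the labels show.

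**Figure D1:**
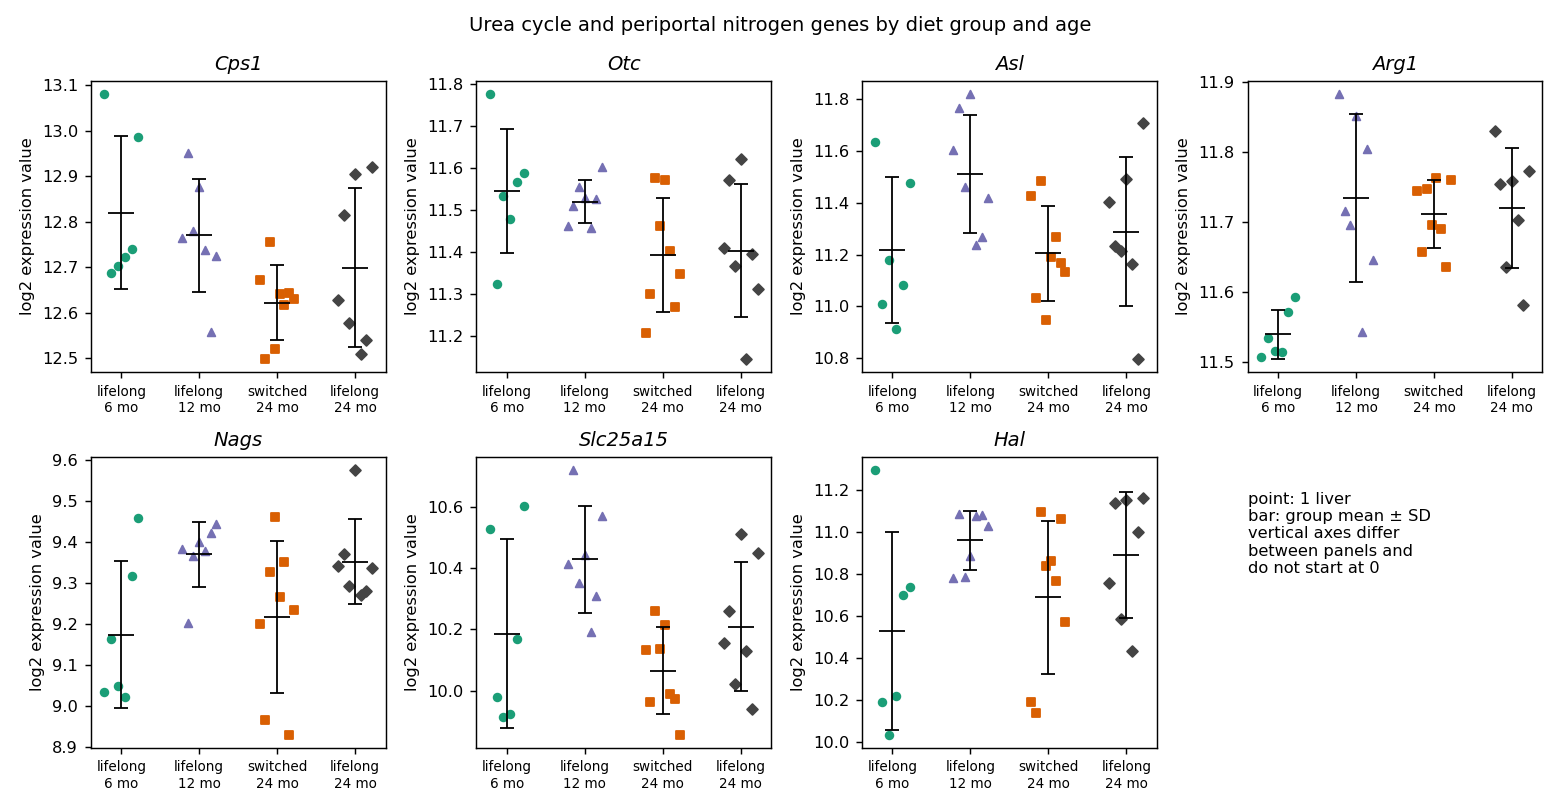
Log2 expression value (vertical axes) of the 7 measured members in each liver, with the mean and SD of each group as bars; the groups run from lifelong 6 months to lifelong 24 months, with switched 24 months before the last. The Arg1 values of the 6 youngest livers lie between 11.51 and 11.59, while the Hal values of the same livers span 10.03 to 11.29.

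Among the enzymes of entry into the cycle, Nags had its lowest group mean at 6 months, while Cps1 and Otc had their highest one there. Nags had a lowest, median and highest log2 value of 9.02, 9.11 and 9.46 in lifelong 6-month livers, 9.20, 9.38 and 9.44 in lifelong 12-month livers, 8.93, 9.25 and 9.46 in switched livers, and 9.27, 9.34 and 9.58 in lifelong 24-month livers. Every liver of the lifelong 12-month and 24-month groups exceeded the 6-month mean, although only 1 of the 24-month livers exceeded every 6-month liver. For Cps1 the lowest, median and highest values were 12.69, 12.73 and 13.08 in lifelong 6-month livers, 12.56, 12.76 and 12.95 in lifelong 12-month livers, 12.50, 12.64 and 12.76 in switched livers, and 12.51, 12.63 and 12.92 in lifelong 24-month livers. In the youngest group replicates 1 and 6, at 13.08 and 12.99, stood apart from the other 4 livers, which lay between 12.69 and 12.74. Otc had a lowest, median and highest value of 11.32, 11.55 and 11.78 in lifelong 6-month livers, 11.46, 11.53 and 11.60 in lifelong 12-month livers, 11.21, 11.38 and 11.58 in switched livers, and 11.15, 11.40 and 11.62 in lifelong 24-month livers. The 12-month livers lay in the narrowest range, and the groups overlapped throughout.

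The mitochondrial carrier and the cytosolic enzymes spread more widely, apart from Arg1. For Slc25a15 the lowest, median and highest values were 9.92, 10.07 and 10.60 in lifelong 6-month livers, 10.19, 10.41 and 10.72 in lifelong 12-month livers, 9.86, 10.06 and 10.26 in switched livers, and 9.94, 10.15 and 10.51 in lifelong 24-month livers. Replicates 1 and 6 of the 6-month group were again the highest of their group, at 10.53 and 10.60. Asl, which releases arginine, had a lowest, median and highest value of 10.91, 11.13 and 11.63 in lifelong 6-month livers, 11.24, 11.46 and 11.82 in lifelong 12-month livers, 10.95, 11.18 and 11.48 in switched livers, and 10.80, 11.23 and 11.71 in lifelong 24-month livers. The same replicates 1 and 6 led the 6-month group with 11.63 and 11.48. Arg1 had 11.51, 11.53 and 11.59 in lifelong 6-month livers, 11.54, 11.72 and 11.88 in lifelong 12-month livers, 11.63, 11.72 and 11.76 in switched livers, and 11.58, 11.75 and 11.83 in lifelong 24-month livers as its lowest, median and highest values. Each of the older groups had at most 1 liver within the range of the youngest group, and all 8 switched livers were above it. Switched and 6-month livers differ in both age and diet history, and that pair of groups was not fitted. The share of all genes that separate these groups was not counted.

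Hal, the histidine enzyme, had the widest spread of the members. Its lowest, median and highest values were 10.03, 10.46 and 11.29 in lifelong 6-month livers, 10.78, 11.03 and 11.08 in lifelong 12-month livers, 10.14, 10.80 and 11.09 in switched livers, and 10.43, 11.00 and 11.16 in lifelong 24-month livers. Replicates 2, 3 and 4 of the 6-month group lay at 10.19, 10.03 and 10.22, below every lifelong liver of the other ages. With the group means taken out, but not the array-name prefix, the SD between livers was 0.33 for Hal, and 94.7% of all measured genes had a lower one. For Arg1 the SD was 0.080, and 1.93% of genes had a lower one. Asl (0.24) and Slc25a15 (0.21) lay above the median gene (0.16), and Nags (0.14), Cps1 (0.14) and Otc (0.13) below it. Against the 2074 genes brighter than Nags, the dimmest member, the last 3 were not below the middle. Of those bright genes 58.9% had a lower SD than Nags, 55.9% than Cps1 and 50.3% than Otc. The share was 10.6% for Arg1, 83.2% for Slc25a15, 88.9% for Asl and 95.3% for Hal.

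Lifelong livers at 24 and at 6 months differ in age and in time on the diet, and 1 of the 7 measured members, Arg1, was higher at 24 months. Over all probe sets 2.1% were called higher, 2.63% lower and 4.73% in either direction. Arg1 averaged 11.72 ± 0.09 at 24 months (SD, n = 7) and 11.54 ± 0.03 at 6 months (SD, n = 6), a fitted difference of 0.17 (SE 0.049, 95% interval 0.07 to 0.27, limma adjusted p = 0.0463), or 1.12-fold. It was above every 6-month liver in 6 of 7 livers at 24 months. Within the prefixes the difference was 0.14 in G150 (4 livers against 4), 0.26 in G151 (1 against 1) and 0.20 in G152 (2 against 1). The call was lost in each of 11 fits that left out 1 liver, namely without 6-month replicate 1, 2, 3, 4 or 6, or without 24-month replicate 1, 2, 3, 4, 5 or 7. In those fits the adjusted p was at most 0.114, and the difference stayed above 0. In whole-liver RNA, a change in the number of cells of a type and a change in RNA per cell cannot be told apart.

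No call was made for the other 6 members between 24 and 6 months, whose unadjusted limma p-values were all above 0.05, a level that 19.2% of all probe sets were below. Hal had the widest interval, with a mean of 10.89 ± 0.30 at 24 months and 10.53 ± 0.47 at 6 months (difference 0.36, 95% interval -0.03 to 0.74, limma adjusted p = 0.304). The Hal difference was 0.24 in G150, 0.94 in G151 and 0.21 in G152. Nags averaged 9.35 ± 0.10 at 24 months and 9.17 ± 0.18 at 6 months, a difference of 0.17 (95% interval 0.00 to 0.34, limma adjusted p = 0.266). Cps1 (difference -0.13, limma adjusted p = 0.403) and Otc (difference -0.15, limma adjusted p = 0.285) had values on the other side of 0, with 4 and 2 of the 7 livers at 24 months below every 6-month liver. For Asl (0.05) and Slc25a15 (0.02) the fitted difference was near 0. The median difference over the 7 members was 0.05, beside a median of 0.00 over all genes.

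**Figure D2:**
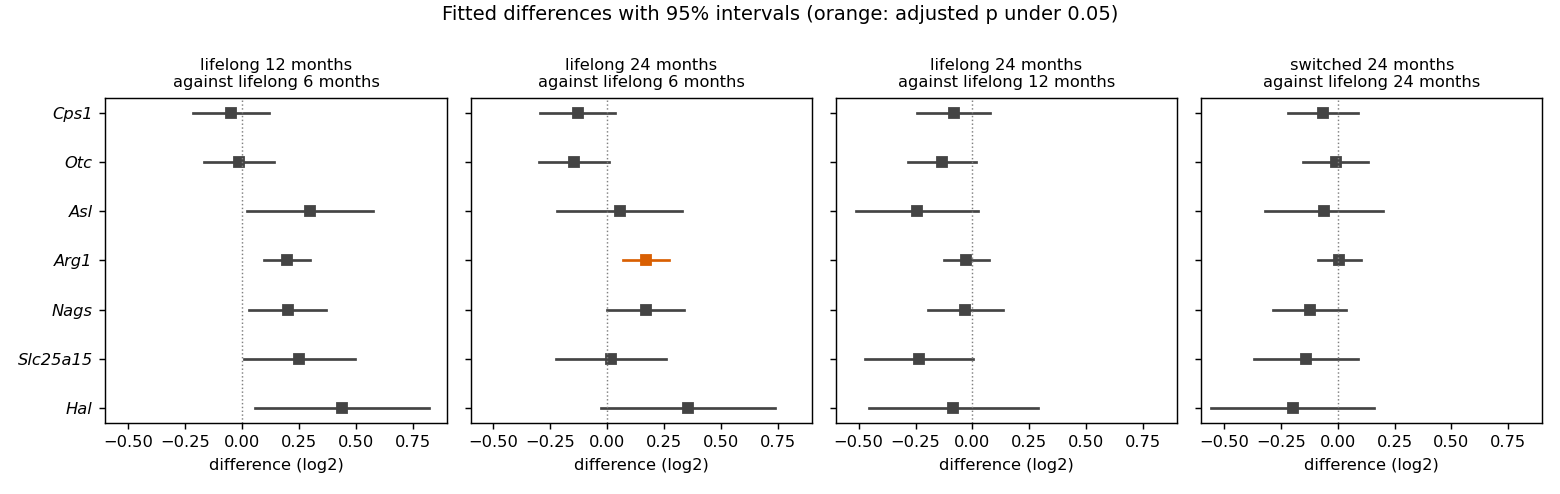
Fitted log2 difference (horizontal axes) of each member in the 4 comparisons, with 95% intervals as lines; each panel names the group on top of the difference first. Arg1 in lifelong 24 months against lifelong 6 months is the only value past the threshold, drawn in orange, and all 7 values of lifelong 24 months against lifelong 12 months lie below 0.

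The 12-month livers were set against the same 6-month livers, so this comparison shares its controls with that at 24 months. No member passed the threshold in limma, where 0.591% of all probe sets did, and 5 of the 7 members had an unadjusted p below 0.05, as did 13.1% of all probe sets. These were Hal (difference 0.44), Asl (0.30), Slc25a15 (0.25), Nags (0.20) and Arg1 (0.20). Arg1 averaged 11.73 ± 0.12 at 12 months (SD, n = 7) and 11.54 ± 0.03 at 6 months (SD, n = 6), and its difference of 0.20 (SE 0.049, 95% interval 0.09 to 0.30, limma adjusted p = 0.0636) was on the edge of a call. In 6 alternative settings, and without 12-month replicate 5 (limma adjusted p = 0.049), the adjusted p of Arg1 was below the threshold. Its values by prefix were 0.20 in G150, 0.16 in G151 and 0.26 in G152. The adjusted p-values of Hal, Asl, Slc25a15 and Nags lay between 0.288 and 0.359 in limma. For each of these 5 genes, every 12-month liver exceeded the 6-month mean. Cps1 (-0.05) and Otc (-0.01) had differences near 0. The median over the members was 0.20, beside 0.01 over all genes.

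Between 24 and 12 months all 7 members had a lower mean at 24 months, and none passed the threshold. Of all probe sets 0.0253% passed it. The differences ran from -0.24 (Asl) to -0.03 (Arg1), with limma adjusted p-values of 0.452 or more, and no member had an unadjusted p below 0.05, which 11.1% of all probe sets had. Slc25a15, the ornithine carrier, averaged 10.21 ± 0.21 at 24 months and 10.43 ± 0.17 at 12 months (SD, n = 7 each), a difference of -0.23 (95% interval -0.47 to 0.00, limma adjusted p = 0.452). Asl averaged 11.29 ± 0.29 at 24 months and 11.51 ± 0.23 at 12 months, a difference of -0.24 (95% interval -0.51 to 0.02, limma adjusted p = 0.500). The difference of Asl within prefixes was -0.39 in G150, 0.45 in G151 and -0.50 in G152. The median over the members was -0.08, beside -0.01 over all genes, of which 44.7% had a positive difference.

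The switched livers were set against lifelong livers of the same age, a comparison that bears on the diet eaten before 12 months. No member passed the threshold, where 0.0197% of all probe sets did, and none had an unadjusted p below 0.05 in limma, which 7.58% of all probe sets had. Hal had the largest difference among the members, -0.20, with a mean of 10.69 ± 0.36 in switched livers (SD, n = 8) and 10.89 ± 0.30 in lifelong livers (SD, n = 7). Its 95% interval, -0.56 to 0.16, spans a lower and a slightly higher level in switched livers (limma adjusted p = 0.858). Within prefixes the Hal difference was 0.00 in G150, -0.97 in G151 and -0.38 in G152. Arg1 was at 11.71 ± 0.05 in switched livers and 11.72 ± 0.09 in lifelong livers, and its interval of -0.09 to 0.10 was the narrowest. For Cps1 the interval was -0.22 to 0.09 and for Otc -0.15 to 0.13. Nags (-0.12) and Slc25a15 (-0.14) had lower means in switched livers, and 5 of 8 switched livers lay below every lifelong liver for Nags. The median over the members was -0.06, beside 0.00 over all genes.

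Within groups the members did not vary independently. Values with group and array-name prefix taken out were correlated over the 28 livers for each of 21 pairs of members, with 100000 permutations of livers within groups and Benjamini-Hochberg adjustment over the 21 pairs, two-sided. Pearson's r was positive for 20 pairs and passed the threshold for 9, all positive, with a median of 0.37 and a range from -0.02 to 0.83. The share of all gene pairs that would pass was not counted. Cps1 and Asl, the first enzyme of the cycle and the arginine-releasing one, had r = 0.83 and rho = 0.76 (permutation adjusted p = 0.00021 each, from the smallest p that these permutations can give, 1e-05). Cps1 and Slc25a15 had r = 0.81 and rho = 0.74 (permutation adjusted p = 0.00028 and 0.000735). Asl and Slc25a15 had r = 0.76 and rho = 0.68 (permutation adjusted p = 0.00021 and 0.00343). Livers above their group in Cps1 tended to be above it in Asl and Slc25a15.

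**Figure D3:**
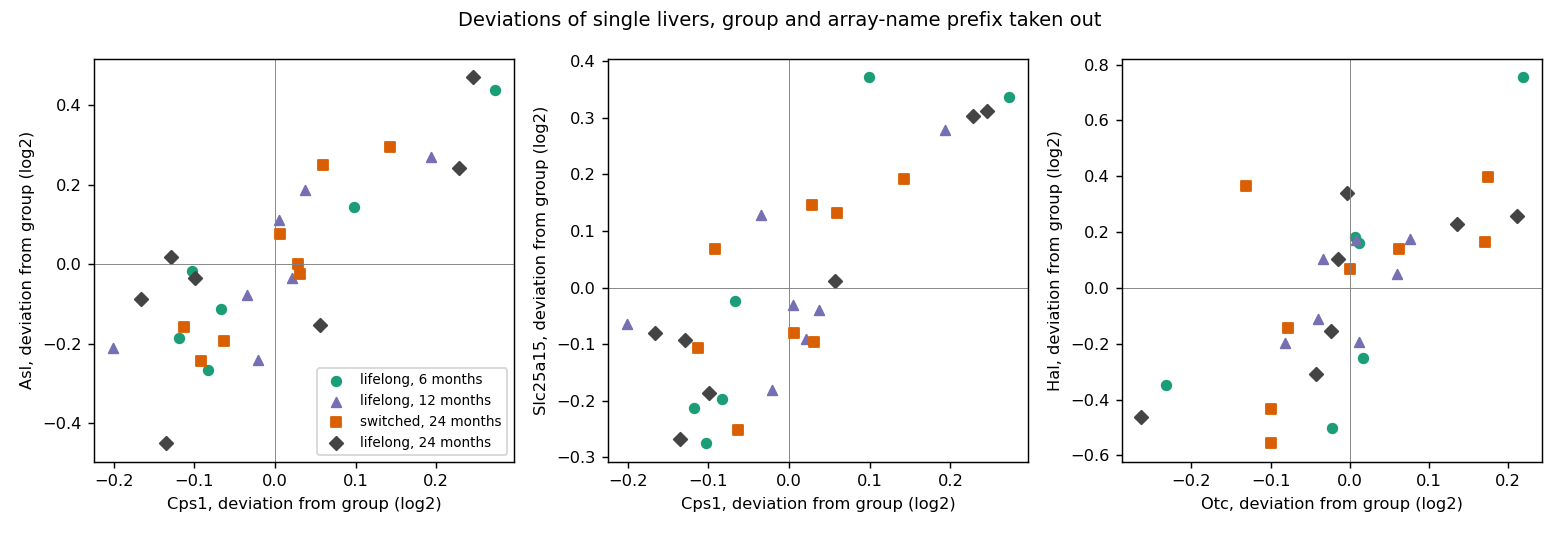
Deviation of each liver from its group (log2, both axes), with the array-name prefix also taken out, for Asl against Cps1, Slc25a15 against Cps1 and Hal against Otc; symbols mark the group. Livers of all 4 groups lie along the rising line in the Cps1 panels, where r was 0.83 with Asl and 0.81 with Slc25a15.

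Otc varied with Hal and, less firmly across settings, with Cps1, the enzyme that supplies its substrate. Otc and Hal had r = 0.69 and rho = 0.65 (permutation adjusted p = 0.00247 and 0.00383). Otc and Cps1 had r = 0.50 and rho = 0.35 (permutation adjusted p = 0.0389 and 0.124), and without the 2 livers farthest from the median of the first-named gene of the pair, Cps1, r was 0.41 (permutation adjusted p = 0.104). Among the 18 livers on G150 arrays Otc and Cps1 had r = 0.68 (permutation adjusted p = 0.0326), close to the 0.70 of Otc and Hal there, and the gap between these correlations was not tested. The other 4 pairs past the threshold were Cps1 with Hal (r = 0.62), Slc25a15 with Hal (r = 0.59), Otc with Slc25a15 (r = 0.51) and Asl with Arg1 (r = 0.47). Arg1 had r = -0.02 with Hal and 0.09 with Otc, and Nags had r = 0.12 with Cps1, the enzyme its product activates. By Pearson's r over the 28 livers, no pair of either gene passed the threshold other than Asl with Arg1. By Spearman's rho, Otc with Nags (rho = 0.49) and Arg1 with Slc25a15 (rho = 0.44) also passed (permutation adjusted p = 0.0381 each). Otc with Nags had r = 0.40 over the 28 livers (permutation adjusted p = 0.107), 0.54 without the 2 farthest livers and 0.63 without the 6-month livers (permutation adjusted p = 0.033 and 0.0204).

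**Figure D4:**
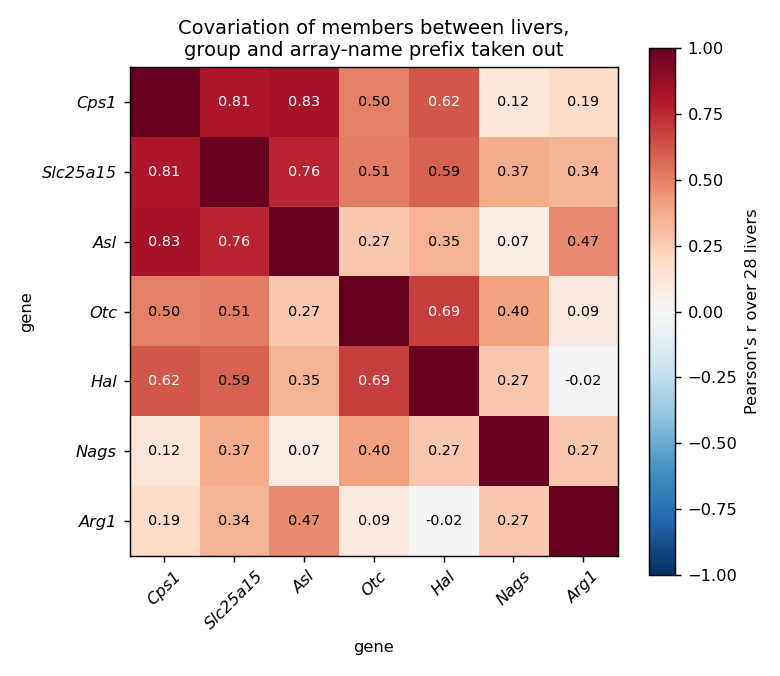
Pearson's r between members over 28 livers, with group and array-name prefix taken out, as a coloured and numbered grid. The block of Cps1, Slc25a15 and Asl holds values from 0.76 to 0.83, and the rows of Nags and Arg1 hold values of 0.47 or less with the other members.

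The correlations of the first 4 pairs (Cps1 with Asl, Cps1 with Slc25a15, Asl with Slc25a15 and Otc with Hal) passed in every setting tried. Among the 18 livers on G150 arrays their r was 0.88, 0.85, 0.74 and 0.70. Without the 2 livers farthest from the median of the first gene it was 0.80, 0.79, 0.76 and 0.58, and without any 6-month liver 0.80, 0.78, 0.75 and 0.66. The G151 and G152 arrays hold 5 livers each, too few for a correlation. Counted over all 21 pairs, 8 passed among G150 arrays, 10 without the 2 farthest livers, 10 by Spearman's rho and 6 without the 6-month livers.

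As a description with no test, the likeness of each member to 18819 other genes was ranked by the same r over 28 livers. The genes share arrays and livers, and these r values are not independent of one another. For Cps1 the highest r was with Ankrd33b (0.88), Cth (0.88), the enzyme that makes cysteine, and Phyh (0.87), a peroxisomal enzyme, while Asl ranked at place 6 and Slc25a15 at place 12. For Asl it was with Sult1d1 (0.89), a sulfotransferase, Ankrd33b (0.87) and Got1 (0.85), the cytosolic aspartate aminotransferase. For Slc25a15 it was with Kynu (0.85), the kynureninase of tryptophan breakdown, Ugt2a3 (0.81) and Cps1 (0.81). Otc had its highest r with Echdc3 (0.85), Pecr (0.85), a peroxisomal reductase, and Ddx52 (0.82). Hal had it with Klf12 (0.85), Dock4 (0.85) and Pipox (0.84), the pipecolic acid oxidase. The highest values of Nags, with Tmprss6 (0.76), Grk6 (0.75) and Zfp523 (0.74), and of Arg1, with Cts7 (0.76), Avp (0.71) and Zim1 (0.70), were lower. Other pairs of members past the threshold ranked lower. For Asl, Slc25a15 ranked at place 16 and Arg1 at place 524. For Otc, Hal ranked at place 56 and Slc25a15 at place 566. For Cps1, Hal ranked at place 162 and Otc at place 533, and for Slc25a15, Hal ranked at place 240. The median r of each member with all genes lay between -0.03 and 0.00.

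On average over genes of the fasting response, the high replicates 1 and 6 were the lowest of the 6-month group. Replicates 2, 3 and 4 of that group were above every other liver. A score averaged, over 12 measured genes of fasting and of the fatty acid receptor PPARA, the deviation of a liver from each gene's mean over all livers. It was -0.43 and -0.35 in 6-month replicates 1 and 6, against 0.86, 0.90 and 0.87 in replicates 2, 3 and 4 and 0.02 in replicate 5. In the other groups the score ran from -0.61 to 0.45 at lifelong 12 months, from -0.24 to 0.42 in switched livers and from -0.37 to 0.17 at lifelong 24 months. Of these 12 genes, Hadhb fell at 24 months (difference -0.36, limma adjusted p = 0.0288), and Hadhb (-0.46) and Ehhadh (-1.16), enzymes of fatty acid oxidation, fell at 12 months (limma adjusted p = 0.0330 and 0.0458), each against 6 months. The part of the feeding state in the differences between ages was not tested.

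Taken over all 28 livers, the 6-month livers included, 3 members had an inverse relation to the fasting score past the threshold. The relations to list scores were added after seeing the data, which their p-values do not allow for. With group and array-name prefix taken out, r was -0.63 (rho = -0.67) for Slc25a15, -0.62 (rho = -0.64) for Hal and -0.52 (rho = -0.57) for Otc, each with a permutation adjusted p of 0.0098 over 28 relations of 7 members to 4 list scores. Without the 2 livers farthest from the median of the score, r was -0.63, -0.54 and -0.42 (permutation adjusted p = 0.0214, 0.0494 and 0.0669). Without the 6-month livers it was -0.38, -0.35 and -0.41 (permutation adjusted p = 0.276, 0.276 and 0.112), so none of the 3 relations passed there. Among the G150 arrays r was -0.64, -0.62 and -0.54. Hal was also inversely related to the score of 11 lipid synthesis genes (r = -0.52, rho = -0.53, permutation adjusted p = 0.0403), with r = -0.60 without the 2 farthest livers and -0.58 without the 6-month livers (permutation adjusted p = 0.112). Among G150 arrays that r was also -0.58.

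**Figure D5:**
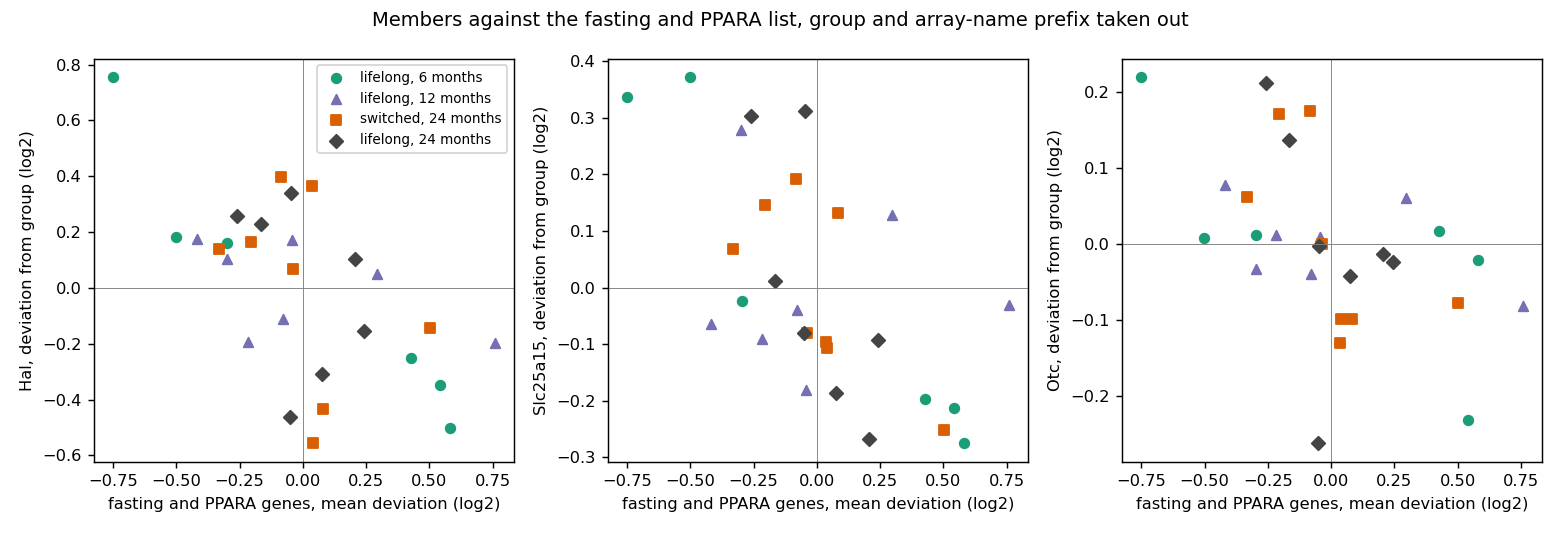
Deviation of Hal, Slc25a15 and Otc in each liver (vertical axes, log2) against the mean deviation of 12 fasting and PPARA genes (horizontal axes, log2), with group and array-name prefix taken out; symbols mark the group. The 6-month livers lie at both ends of the falling trend, and r over 28 livers was -0.62, -0.63 and -0.52 for Hal, Slc25a15 and Otc.

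All 7 members had a positive r with markers of the opposite end of the lobule, from 0.07 (Arg1) to 0.74 (Otc). The relation passed the threshold for Otc and Hal. The score of 16 pericentral markers had r = 0.74 (rho = 0.65) with Otc (permutation adjusted p = 0.0014) and r = 0.59 (rho = 0.56) with Hal (permutation adjusted p = 0.0232). By Spearman's rho, Cps1 (0.58) and Slc25a15 (0.57) passed as well, with a permutation adjusted p of 0.032 each, the same as for Hal. By Pearson's r these genes did not pass (r = 0.52 and 0.48, permutation adjusted p = 0.0704 and 0.08). Relations to a score of periportal markers were not tested. For Otc, r was 0.61 without the 2 farthest livers (permutation adjusted p = 0.0214) and 0.72 without the 6-month livers (permutation adjusted p = 0.0423). For Hal it was 0.50 (permutation adjusted p = 0.0669) and 0.43 (permutation adjusted p = 0.276). Among G150 arrays these relations had r = 0.77 for Otc and 0.62 for Hal. The hepatocyte score also had a positive r with all 7 members, between 0.06 and 0.44, none past the threshold over the 28 livers. Without the 2 farthest livers its r with Nags was 0.51, which passed (permutation adjusted p = 0.04).

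The other genes of the pathway were read by the same limma fits. In lifelong livers at 24 against 6 months, 1 of 4 measured genes of the histidine and serine branch rose. This was Uroc1, urocanate hydratase, which acts on the product of Hal and averaged 10.25 ± 0.19 at 24 months and 9.93 ± 0.14 at 6 months (difference 0.30, limma adjusted p = 0.0269). Of 10 genes of ammonia and glutamate handling 1 rose, Prodh, the proline dehydrogenase (difference 0.54, limma adjusted p = 0.0476). Of 13 transport genes, Slc38a3, a glutamine transporter of hepatocytes, rose (0.21, limma adjusted p = 0.00856), and Slc38a2, an amino acid transporter induced by amino acid shortage, fell by 0.44 on the log2 scale (limma adjusted p = 0.0303). None of 14 regulators passed, where Cebpb (-0.32) and Hnf4a (-0.27), transcription factors, came nearest (limma adjusted p = 0.0679 and 0.0815). None of 6 gluconeogenesis genes passed in limma, with the smallest adjusted p for G6pc (-0.41, limma adjusted p = 0.0699).

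Of 28 measured genes of amino acid breakdown, 2 rose and 2 fell at 24 against 6 months. Amt, of the glycine cleavage system, rose by 0.48 and Shmt1, which links serine and glycine, by 0.23 (limma adjusted p = 0.00924 and 0.0223). Tat, the tyrosine aminotransferase, fell by 0.42 and Tdo2, which opens the ring of tryptophan, by 0.26 (limma adjusted p = 0.0355 and 0.0463). At 12 against 6 months, Amt (0.46) and Kynu (0.35) rose (limma adjusted p = 0.0403 and 0.0437), while no gene of the histidine, ammonia, transport, regulator or gluconeogenesis lists passed. No gene of these 6 lists passed between 24 and 12 months or between switched and lifelong livers. The list medians at 24 against 6 months ran from -0.02 (gluconeogenesis) to 0.13 (histidine branch and ammonia handling), beside 0.00 over all genes.

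Of 14 measured periportal markers outside the members, Apoc2, an apolipoprotein, rose (0.29, limma adjusted p = 0.0202) and Cdh1, E-cadherin, fell by 0.92 (limma adjusted p = 0.0208) at 24 against 6 months, with a list median of -0.09. At 12 against 6 months Apoc2 rose by 0.36 (limma adjusted p = 0.0311). Of 16 pericentral markers 1 rose at 24 against 6 months, the glutamate transporter Slc1a2 (0.35, limma adjusted p = 0.0489). None of 8 hepatocyte markers passed, with a list median of -0.06. In the same livers 6 of 7 B and plasma cell genes rose at 24 against 6 months, with scores from -0.34 to 1.07 at 24 months and from -0.93 to -0.60 at 6 months. Of 11 Kupffer cell and macrophage genes 1 rose, Lyz2, and the scores ran from -0.51 to 1.05 at 24 months and from -0.41 to 0.15 at 6 months. None of 8 T and NK cell genes and none of 6 neutrophil genes passed. Macrophages can also express Arg1, and the part of these cells in the Arg1 difference was not tested.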

How the data were processed

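Per the labels' protocols, RNA from snap-frozen livers (RNA integrity number above 8) was labelled with biotin and hybridised to single-colour arrays. The deposited table holds log2 expression values of 35556 probe sets, made by the authors with RMA, per the submitters' processing notes. Its version and the genome build are not given in the sources used here. No column was left unused. Genes were named from the platform's probe-to-gene table, where 21218 probe sets list 1 gene. All 28 arrays entered limma 3.58.1 (R 4.3.3), with group and array-name prefix as fixed terms and two-sided tests. Fold changes are 2 to the power of the difference. The fits were tested on simulated data. Correlations used numpy 2.4.6 and scipy 1.17.1 under Python 3.11.15. With 7 measured members there were 21 pairs, fewer than planned for 10. Promoter windows came from RefSeq tables of GRCm38.p6. The members are named in every comparison. Of each list, genes that passed are named, up to 6, or else those with the smallest p, and for likeness the 3 with the highest r, predicted genes left out. The members, lists and tests were chosen with earlier results of these data known. The relations to list scores, and the settings without the 6-month livers, were added after seeing the data. Alternatives were the prefix term, G150 arrays alone, the compared groups alone, filters on dim or unnamed probe sets, quantile normalization repeated, arrays centred on their median, other moderation, array weights, a replicate block, means of a gene's probe sets, and leaving out arrays with a suffix in their names or each liver in turn.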

Additional observations from a re-analysis of the deposited data

Results flagged for a closer look

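Among 28 sets of values (7 genes in 4 groups), 2 held a liver far from the others of its group by Dixon's test, which chance alone marks in about 1 in 20 sets. Both concern Nags. Replicate 2 of the lifelong 12-month group had a Nags value of 9.20, while the other 6 livers lay between 9.36 and 9.44, so the gap made up 0.674 of the whole range. Replicate 4 of the lifelong 24-month group had a value of 9.58, while its other 6 livers lay between 9.27 and 9.37, with a gap of 0.676 of the range.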

How the results depend on the processing

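The counts of called members rest on Arg1 alone. For lifelong 24 against 6 months the count was 1, and 0 with only G150 arrays (adjusted p = 0.352), only the groups compared (0.106), arrays centred on their median (0.0607) or both arrays with a suffix in their names left out (0.0868), all by limma. It was 0 to 1 over 13 fits without 1 liver each, with an adjusted p of 0.0333 to 0.114. For 12 against 6 months the count was 0, and 1 with the lowest 30% of probe sets left out (0.0459), only probe sets that stand for a gene (0.0443), quantile normalization repeated (0.0496), moderation with a trend and robust to outliers (0.0336), array weights (0.0395) or the mean of a gene's probe sets (0.0444). It was 0 to 1 without 1 liver each and reached 1 without 12-month replicate 5. For any difference among the 4 groups the count was 1, and 0 with only G150 arrays (0.269). It was 0 to 1 without 1 liver each and was lost without 6-month replicate 1, 2, 3, 4 or 6. The count stayed at 0 for 24 against 12 months and for switched against lifelong livers in every setting, and the difference of Arg1 at 24 and at 12 against 6 months stayed positive in all. Pairs past the threshold numbered 6 to 10, against 9. The cause of these shifts was not tested.

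The replicate block, with the array-name prefix, gave 0 members for 24 against 6 months (Arg1 adjusted p = 0.0907) and 0 for any difference (0.0898). It called 122 probe sets, against 210 without it, for 12 against 6 months, 0 against 9 for 24 against 12 months, 2 against 7 for switched livers and 1658 against 2871 for any difference. Livers with the same number had a median r of 0.02 over 39 pairs, from -0.14 to 0.14, and 3 of 28 arrays matched their own number best. Over all genes there was thus no sign of a pairing by number. A pairing that touches only few genes would not show in this check.

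Counts over all probe sets shifted further. For 12 against 6 months 210 became 108 without the prefix term, 0 with G150 arrays, 22 with the groups compared, 329 with gene probe sets, 518 with weights, 46 without the suffix arrays and 7 to 546 without 1 liver each. For 24 against 6 months 1681 became 194 with G150 arrays, 736 with the groups compared and 831 to 2370 without 1 liver each. For 24 against 12 months 9 became 0 to 124 over all settings, and for switched livers 7 became 0 to 36. For any difference 2871 became 374 with G150 arrays and 1744 to 3411 without 1 liver each. Each measured member was brighter than 90% or more of probe sets.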
